A study of Mus musculus with 7 samples.

Results

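A set of 5 genes for chemokine and chemoattractant receptors of microglia was examined, namely *Cx3cr1*, *Ccr1*, *Cxcr4*, *Ccrl2* and *Cmklr1*. They were taken from the expression table by their symbols, and all 5 of 5 were found among the 40743 genes listed there. The libraries came from retinal microglia (rMG) of adult *Irf8*-/- *Cx3cr1*GFP/+ mice on a C57BL/6J background (*Irf8* KO), sorted by flow cytometry as CD45low CD11b+ *Cx3cr1*GFP/+ cells that lacked Ly6C and Ly6G. Of these libraries, 3 were from unlasered retinae and 4 from retinae taken 7 days after 3 to 6 laser spots per eye, a model of choroidal neovascularisation (CNV) in which the laser breaks the membrane beneath the retina. Each library pooled an average of 10000 cells from 3 to 4 mice. From lasered eyes only the central 70% of the retina was used, so laser injury and retinal region cannot be told apart here. The *Irf8* deletion and the GFP allele were present in both groups, and libraries of *Irf8*-competent mice were not analysed here.

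Chemokine receptors are seven-pass membrane receptors that couple to inhibitory G proteins and steer leukocytes along gradients of their ligands. CX3CR1 binds fractalkine (CX3CL1), a ligand made mainly by neurons, and is a defining receptor of microglia. CCR1 binds several inflammatory CC chemokines, CXCR4 binds CXCL12, and CMKLR1 is a signalling receptor for chemerin (the product of *Rarres2*). CCRL2 belongs to the atypical receptors: it binds chemerin and presents it to neighbouring cells without G protein signalling of its own.

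Values are in CPM, the read counts of a gene scaled to the total reads of its library. Total reads were 20427558 to 36022954 in unlasered and 37133297 to 45919042 in lasered libraries, and a floor of 3 reads corresponded to 0.0653 to 0.147 CPM. The targeted gene *Irf8* was still listed at 489 to 530 CPM in unlasered and 463 to 582 CPM in lasered libraries, together with reads shared with an overlapping gene, so the row does not show the deletion and the genotype is given as labelled. The summed level of 9 microglial markers, which include *Tmem119*, *P2ry12* and *Csf1r*, was 17678 to 20862 CPM in unlasered and 16268 to 22707 CPM in lasered libraries. Of the 9, 0 passed the test in either direction, beside 6.93% of all genes tested. *Csf1r* and *Fcrls* gave most of the summed level, while *P2ry12* was at 412 to 569 CPM in unlasered and 244 to 404 CPM in lasered libraries (log2 difference -0.69, adjusted p = 0.0693 by limma). *P2ry13*, *Gpr34*, *Siglech* and *Sparc* were also on the low side (-0.63, -0.46, -0.39 and -0.34, adjusted p 0.129 to 0.397 by limma). *Fcrls* was at -0.05, and *Tmem119*, *Olfml3* and *Csf1r* were at 0.12, 0.17 and 0.09. The groups also differed in markers of other cells. The 15 rod photoreceptor markers summed to 2233 to 20091 CPM in unlasered and 320 to 1019 CPM in lasered libraries (exact permutation test, two-sided p = 0.0571, the smallest that 3 against 4 libraries allow). Of the 15, 14 were lower after laser, beside 3.07% of all genes tested. The rod sum was highest in unlasered library 2. As these are bulk libraries, more cells of a type and more RNA per cell cannot be told apart.

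By position, 3 of the 5 genes lie on mouse chromosome 9, and all 5 are protein-coding genes on the minus strand of GRCm38 (GENCODE M21). *Cx3cr1* lies at chr9:119901616-120069879, *Ccr1* at chr9:123962124-123968692 and *Ccrl2* at chr9:111054486-111057519. *Cxcr4* lies at chr1:128588199-128592293 and *Cmklr1* at chr5:113612354-113650426. *Ccr1* has 1 annotated transcript of 2 exons, the shorter of 398 bases and the longer of 2435 bases. For *Cx3cr1*, the long span rests on 1 of its 3 transcripts, which ends in an exon of 12 bases, while the exon of 3661 bases that the other transcripts share lies at chr9:120048683-120052343.

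The bases just upstream of a transcript start of *Ccr1* and of *Cmklr1* are shown because these were the receptors whose lasered values all lay above the unlasered ones. Both windows are the 250 bases before the transcript start in RefSeq (GRCm38.p6), read 5′ to 3′ on the minus strand, at chr9:123968693-123968942 for *Ccr1* and chr5:113643604-113643853 for *Cmklr1*. The *Cmklr1* start used lies inside the gene, at the first exon of 1 of its 4 annotated transcripts. Its longest transcript starts at chr5:113650426, and the bases before that start were not searched. Capitals mark a match to the NF-kappaB motif in *Ccr1* and to the composite ETS-IRF element in *Cmklr1*.
Ccr1: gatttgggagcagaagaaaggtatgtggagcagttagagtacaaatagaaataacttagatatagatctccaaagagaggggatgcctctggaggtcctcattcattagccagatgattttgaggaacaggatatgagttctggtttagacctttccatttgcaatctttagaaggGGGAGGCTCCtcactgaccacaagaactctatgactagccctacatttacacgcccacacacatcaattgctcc
Cmklr1: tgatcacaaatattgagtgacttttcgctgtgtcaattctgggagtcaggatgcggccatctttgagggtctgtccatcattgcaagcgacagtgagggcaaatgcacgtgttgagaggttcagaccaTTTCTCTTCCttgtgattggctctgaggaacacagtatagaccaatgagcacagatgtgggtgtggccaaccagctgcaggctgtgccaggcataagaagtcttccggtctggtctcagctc
The search covered both strands for 6 motifs: AP-1 (TGANTCA), the ETS-IRF element (GGAA and GAAA with 2 bases between them), the interferon response element (GAAA and GAAA with 2 bases between them), PU.1 (GAGGAAGT), the TATA box (TATAAA) and NF-kappaB. The NF-kappaB match of *Ccr1* lay 74 to 65 bases before the start, and 7.25% of 32851 RefSeq promoters held such a match in a window of the same length. The ETS-IRF match of *Cmklr1* lay 122 to 113 bases before the start inside the gene, on the opposite strand, and 2.30% of promoters held one. ETS-IRF elements are the kind of site at which IRF8 binds with PU.1, but a match of letters is a description and not a bound site. Among the other members, *Cxcr4* held a TATA box 30 bases before the start (12.4% of promoters) and *Ccrl2* an NF-kappaB match that begins 56 bases before the start of 1 of its 3 promoters, and the window of *Cx3cr1* matched none of the 6.

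*Cx3cr1* was the most abundant of the 5 receptors, in CPM and per exon length. Its level was 1703, 1395 and 2050 CPM in the unlasered libraries and 1332, 1161, 1342 and 1589 CPM in the lasered libraries. The lasered values were on the low side, but the groups overlapped, since unlasered library 2 lay below lasered library 4. The mean was 1716 ± 328 CPM (SD, n = 3) in unlasered and 1356 ± 176 CPM (SD, n = 4) in lasered libraries. On the log2(CPM + 1) scale the difference, lasered minus unlasered, was -0.33 (SE 0.16, 95% interval -0.68 to 0.02, adjusted p = 0.247 by limma) and did not pass the test. The interval leaves room for no difference as well as for a fall by 0.68 on the log2 scale. By mean level, *Cx3cr1* ranked 32 among all listed genes in unlasered and 53 in lasered libraries.

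The *Cx3cr1* values carry 3 limits of the design and the counting. All cells were gated on GFP made from the *Cx3cr1* locus, so cells without activity of this locus did not enter any library. In the GFP allele the coding sequence is disrupted by the inserted reporter, and the row does not tell reads of the intact allele from reads of *Cx3cr1* sequence transcribed from the GFP allele. Some further reads were listed jointly with genes inside the long span of *Cx3cr1*, at 33.6 to 54.7 CPM with *Gorasp1*, 5.26 to 9.44 CPM with *Csrnp1* and 0 to 2.78 CPM with *Xirp1*, and these are not part of the values above. No exon of these 3 genes overlaps an exon of *Cx3cr1*. An antisense gene, Gm33858, does overlap its exons, and the library kit did not mark strand, so reads of that pair cannot be told apart.

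*Ccr1* rose after laser. Its level was 63.6, 106 and 94.9 CPM in the unlasered libraries and 555, 464, 493 and 194 CPM in the lasered libraries. Every lasered value lay above every unlasered value, with lasered library 4 well below the other three. The mean went from 88.3 ± 22.1 CPM (SD, n = 3) to 427 ± 159 CPM (SD, n = 4). The log2 fold change was 2.19 (SE 0.35, 95% interval 1.41 to 2.97, adjusted p = 0.0115 by limma), or 4.55-fold (2.65 to 7.82). By mean level *Ccr1* ranked 2123 among all listed genes in unlasered and 277 in lasered libraries. Across all 17496 genes tested, 6.93% changed at an adjusted p under 0.05, with 3.86% higher and 3.07% lower, against 1 higher and 0 lower of the 5 members. Without unlasered library 2, which held the most rod RNA, the log2 fold change was 2.34 (adjusted p = 0.0251 by limma). Without lasered libraries 1 and 2 together, a check chosen after seeing that dendritic cell markers were highest there, the log2 fold change was 1.83 and the adjusted p 0.114.

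*Cmklr1*, the signalling chemerin receptor, was at 27.7, 29.9 and 32.8 CPM in the unlasered and 67.1, 52.3, 41.5 and 36.8 CPM in the lasered libraries. The groups did not overlap, although lasered library 4 was only slightly above the highest unlasered value. The mean was 30.2 ± 2.56 CPM (SD, n = 3) against 49.4 ± 13.5 CPM (SD, n = 4). The log2 difference was 0.66 (SE 0.21, 95% interval 0.19 to 1.13), with a p of 0.0107 from the limma fit and an adjusted p of 0.0941, which missed the threshold. It passed with median-of-ratios scaling (0.74, adjusted p = 0.0474 by limma) and in DESeq2 on the recovered reads (0.72, adjusted p = 0.0138), but not in edgeR on the same reads (0.71, adjusted p = 0.0649). Of the 17496 genes tested, 10.4% had all lasered values above all unlasered values, as 2 of the 5 members did.

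*Ccrl2*, the atypical chemerin receptor, was at 45.6, 26.5 and 32.4 CPM in unlasered and 43.3, 56.0, 35.5 and 38.2 CPM in lasered libraries. The groups overlapped, with unlasered library 1 above 3 of the 4 lasered libraries. The log2 difference was 0.32 (SE 0.22, 95% interval -0.18 to 0.82, adjusted p = 0.439 by limma).

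*Cxcr4*, the CXCL12 receptor, had the lowest values of the set, at 4.60, 2.10 and 5.33 CPM in unlasered and 9.24, 10.6, 3.96 and 2.07 CPM in lasered libraries. The lasered libraries fell on both sides of the unlasered ones, with libraries 1 and 2 above and library 4 just below all of them. These values rested on 72 to 474 reads per library, well above the floor. The log2 difference was 0.44 (SE 0.47, 95% interval -0.61 to 1.50, adjusted p = 0.634 by limma), and it was -0.29 without lasered libraries 1 and 2 (adjusted p = 0.837 by limma).

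**Figure D1:**
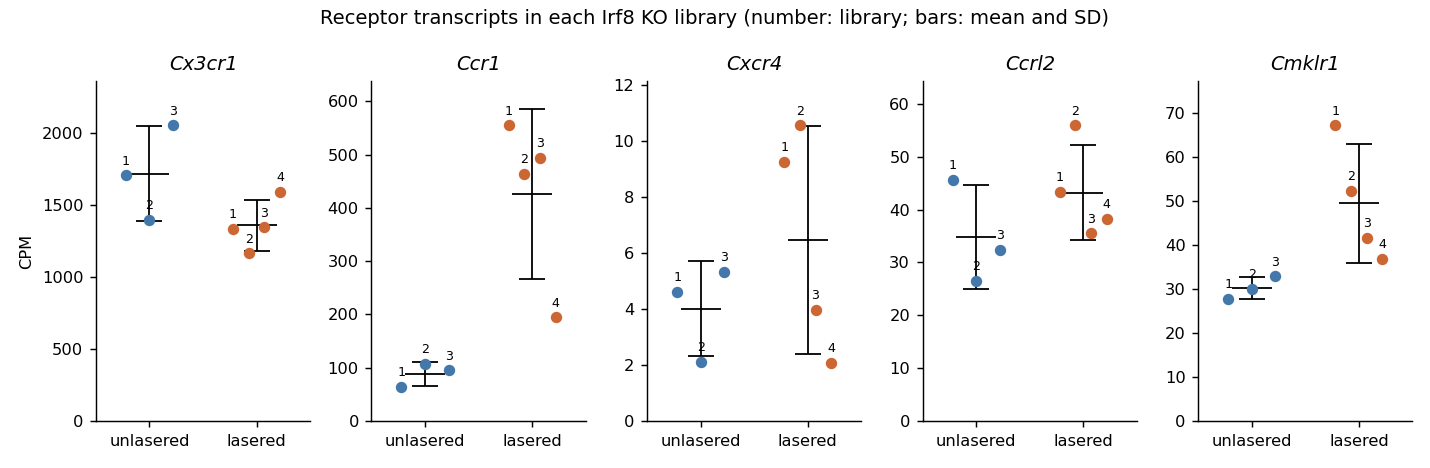
Level of each receptor in CPM (vertical axis, from 0, a scale of its own in each panel) in the 3 unlasered (blue) and 4 lasered (orange) *Irf8* KO libraries. Points are libraries, the long bar is the mean and the whiskers are the SD. *Ccr1* lies at 63.6 to 106 CPM in unlasered and 194 to 555 CPM in lasered libraries, while the groups overlap for *Cx3cr1*, *Cxcr4* and *Ccrl2*.

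To compare receptors with each other, CPM was divided by the length of the exons in kilobases. Reads in introns could be counted as well, and the gene spans differ, at 168 kb for *Cx3cr1*, 38.1 kb for *Cmklr1* and 6.57 kb for *Ccr1*. The levels and ratios per kilobase of exon are therefore approximate. On this scale, *Cx3cr1* was at 381 ± 72.7 CPM per kilobase (SD, n = 3) in unlasered and 301 ± 39.1 (SD, n = 4) in lasered libraries. *Ccr1* was at 31.2 ± 7.81 and 151 ± 56.3 CPM per kilobase. *Ccrl2* was at 13.4 ± 3.78 and 16.6 ± 3.49. *Cmklr1* was at 8.85 ± 0.751 and 14.5 ± 3.95 CPM per kilobase, and *Cxcr4* was lowest at 2.22 ± 0.936 and 3.57 ± 2.26. The order was thus *Cx3cr1*, *Ccr1*, *Ccrl2*, *Cmklr1* and *Cxcr4* in both groups. Neighbours in this order did not overlap in their ranges, except *Ccrl2* and *Cmklr1* in lasered libraries, where *Ccrl2* was the higher in 3 of 4. The mean of *Cx3cr1* was 12.2 times that of *Ccr1* per kilobase in unlasered and 2.0 times in lasered libraries.

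The reads of the 5 receptors were also taken as a whole. Their summed level was 1560 to 2215 CPM in unlasered and 1744 to 2006 CPM in lasered libraries, and the lasered range lay inside the unlasered one. Within this sum, *Cx3cr1* held 89.4% to 92.5% of the reads in unlasered libraries and 66.4%, 66.6%, 70.0% and 85.4% in lasered libraries 1 to 4. *Ccr1* held 3.45% to 6.82% in unlasered and 27.7%, 26.6%, 25.7% and 10.4% in lasered libraries. Lasered library 4 was therefore the one closest to the unlasered libraries in both shares.

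**Figure D2:**
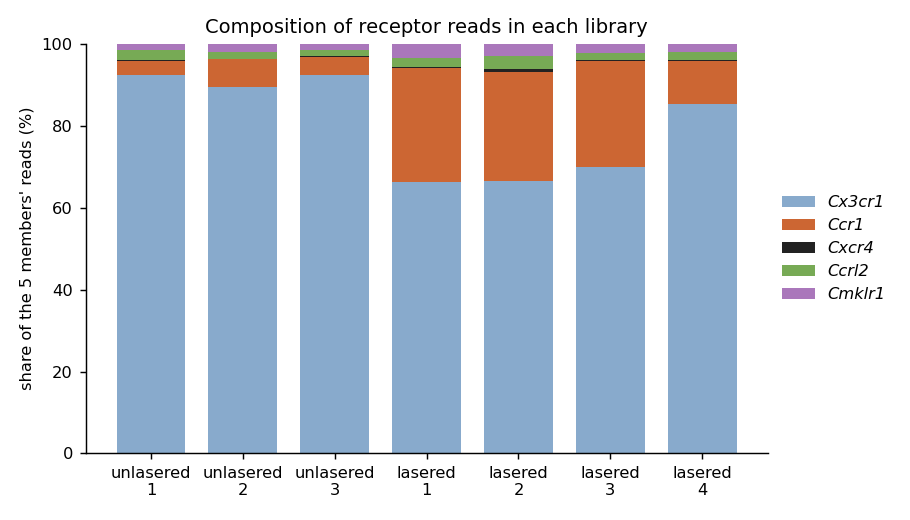
Share of the reads of the 5 receptors (vertical axis, %) that each receptor held in each *Irf8* KO library (horizontal axis). *Cx3cr1* held 89.4% to 92.5% in unlasered and 66.4% to 85.4% in lasered libraries, and *Ccr1* most of the remainder in the lasered libraries.

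Ratios between receptors do not depend on library scaling, so all 10 pairs were compared with exact two-sided permutation tests. With 3 against 4 libraries the smallest p is 0.0571, so no pair could pass. After adjustment over the 10 pairs the smallest value found was 0.143. In 4 pairs the groups did not overlap, each with *Ccr1* or *Cmklr1* in it. *Cx3cr1* reads per *Ccr1* read were 26.8, 13.1 and 21.6 in unlasered and 2.40, 2.50, 2.72 and 8.18 in lasered libraries. *Cx3cr1* reads per *Cmklr1* read were 61.5, 46.6 and 62.5 in unlasered and 19.8, 22.2, 32.4 and 43.2 in lasered libraries. The ratio of *Ccr1* to *Cmklr1* was 2.30, 3.56 and 2.89 in unlasered and 8.26, 8.87, 11.9 and 5.28 in lasered libraries, and that of *Ccr1* to *Ccrl2* also did not overlap (1.39 to 4.02 against 5.08 to 13.9). The ratio of the chemerin receptors to each other overlapped, with *Ccrl2* to *Cmklr1* at 0.884 to 1.65 in unlasered and 0.645 to 1.07 in lasered libraries.

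The ligands of these receptors were listed too, as far as the sorted cells held their transcripts. Of 9 ligand genes 8 were tested, of which 2 were higher in lasered libraries, 0 were lower and 6 did not pass, beside 3.86% higher and 3.07% lower over all genes tested. The median log2 difference of the 8 was 0.68, beside -0.01 over all genes tested. *Ccl5*, a CCR1 ligand, rose from 2.59, 5.93 and 2.55 CPM to 30.6, 29.4, 15.5 and 14.6 CPM (log2 fold change 2.32, SE 0.34, adjusted p = 0.00947 by limma). *Cx3cl1*, the CX3CR1 ligand, rose from 1.18, 1.31 and 1.78 CPM to 3.99, 5.26, 4.33 and 4.61 CPM (1.20, SE 0.19, adjusted p = 0.0115 by limma). At such low levels the size of both changes depends on the pseudocount of 1 CPM. With 0.1 CPM it was 1.62 for *Cx3cl1* and 2.61 for *Ccl5*, and in edgeR 1.68 and 2.59. Without lasered libraries 1 and 2 neither passed, with a log2 fold change of 1.85 for *Ccl5* (adjusted p = 0.0994 by limma) and 1.18 for *Cx3cl1* (adjusted p = 0.116 by limma).

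Among the ligands that did not pass were the other CCR1 ligands. *Ccl9* was at 28.3 to 44.1 CPM in unlasered and 40.4 to 105 CPM in lasered libraries (1.09, adjusted p = 0.0792 by limma). *Ccl3* was at 19.0 to 38.7 and 31.1 to 62.4 CPM, *Ccl6* at 42.2 to 63.4 and 31.3 to 66.9 CPM, and *Ccl7* at 1.34 to 3.41 and 2.67 to 5.79 CPM. The ligand shared by CMKLR1 and CCRL2 was low: *Rarres2* was at 2.89 to 5.44 CPM in unlasered and 3.64 to 5.66 CPM in lasered libraries. For CXCR4, *Cxcl12* was at 0 to 0.267 CPM and not tested, whereas *Mif*, which encodes a cytokine that can also bind CXCR4, was at 17.4 to 29.5 CPM. Of the 4 genes of ligand processing, which include *Ctss*, *Adam10* and *Adam17*, all 4 were tested and 0 passed. *Ctss*, a protease that sheds fractalkine, was at 3898 to 5772 CPM in unlasered and 5707 to 6763 CPM in lasered libraries (0.34, adjusted p = 0.196 by limma). *Adam10* was at 301 to 460 and 360 to 435 CPM, and *Adam17* at 154 to 225 and 186 to 265 CPM.

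Of 19 other chemokine receptor genes 18 were listed and 12 tested, of which 1 was higher in lasered libraries, 0 were lower and 11 did not pass, beside 3.86% higher and 3.07% lower over all genes tested. The median log2 difference of the 12 was 0.17. *Cxcr2*, a receptor for ELR+ CXC chemokines that is best known from neutrophils, had 3, 1 and 2 reads in the unlasered libraries, which is at or under the floor, and 5.48, 5.03, 12.9 and 1.05 CPM in the lasered ones. It entered the test only through the lasered libraries, so its call is no independent result: without the filter on low values the adjusted p was 0.0756 by limma. Its fitted log2 fold change depends on the pseudocount, at 2.43 with 1 CPM (adjusted p = 0.0305 by limma), 4.74 with 0.1 CPM and 6.42 in edgeR, and the adjusted p ran from 0.00894 to 0.0816 when 1 library was left out. Among the neutrophil markers, *S100a8* reached 7.20 CPM in unlasered library 1 and 6.86 CPM in lasered library 2, *S100a9* at most 3.48 CPM and *Elane* at most 0.327 CPM, in lasered library 3. *Ly6g*, *Mpo* and *Retnlg* were at 0 to 0.147 CPM, and cells with Ly6G on their surface had been left out by the sort. *Ccr9*, a receptor best known from gut-homing lymphocytes, shares reads with overlapping genes and was at 12.2 to 18.9 CPM in unlasered and 13.7 to 17.1 CPM in lasered libraries (0.02, adjusted p = 0.961 by limma).

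*Ccr1* lies in a cluster of receptor genes on chromosome 9, and the neighbours given here did not pass the test. Nearest was *Ccr1l1*, 15.1 kb away, whose mean was 10.5 CPM before and 5.84 CPM after laser (-0.69, adjusted p = 0.248 by limma). *Ccr3*, 59.8 kb away, had means of 9.37 and 6.47 CPM (-0.45, adjusted p = 0.548 by limma). Farther along, *Ccr2*, the receptor for CCL2 and a marker of inflammatory monocytes, was at 5.63, 6.37 and 14.2 CPM in unlasered and 81.5, 128, 19.7 and 7.57 CPM in lasered libraries, so the groups overlapped (2.03, SE 0.83, adjusted p = 0.186 by limma). *Ccr7*, on chromosome 11 and known from migrating dendritic cells, was at 4.16, 0.263 and 0.028 CPM and then 74.8, 68.5, 5.34 and 3.10 CPM (3.35, adjusted p = 0.103 by limma). Both *Ccr2* and *Ccr7* were highest in lasered libraries 1 and 2, as *Cxcr4* was. In lasered library 3 *Ccr2* and *Ccr7* still lay above every unlasered value, and *Ccr1* was high in lasered libraries 1 to 3.

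**Figure D3:**
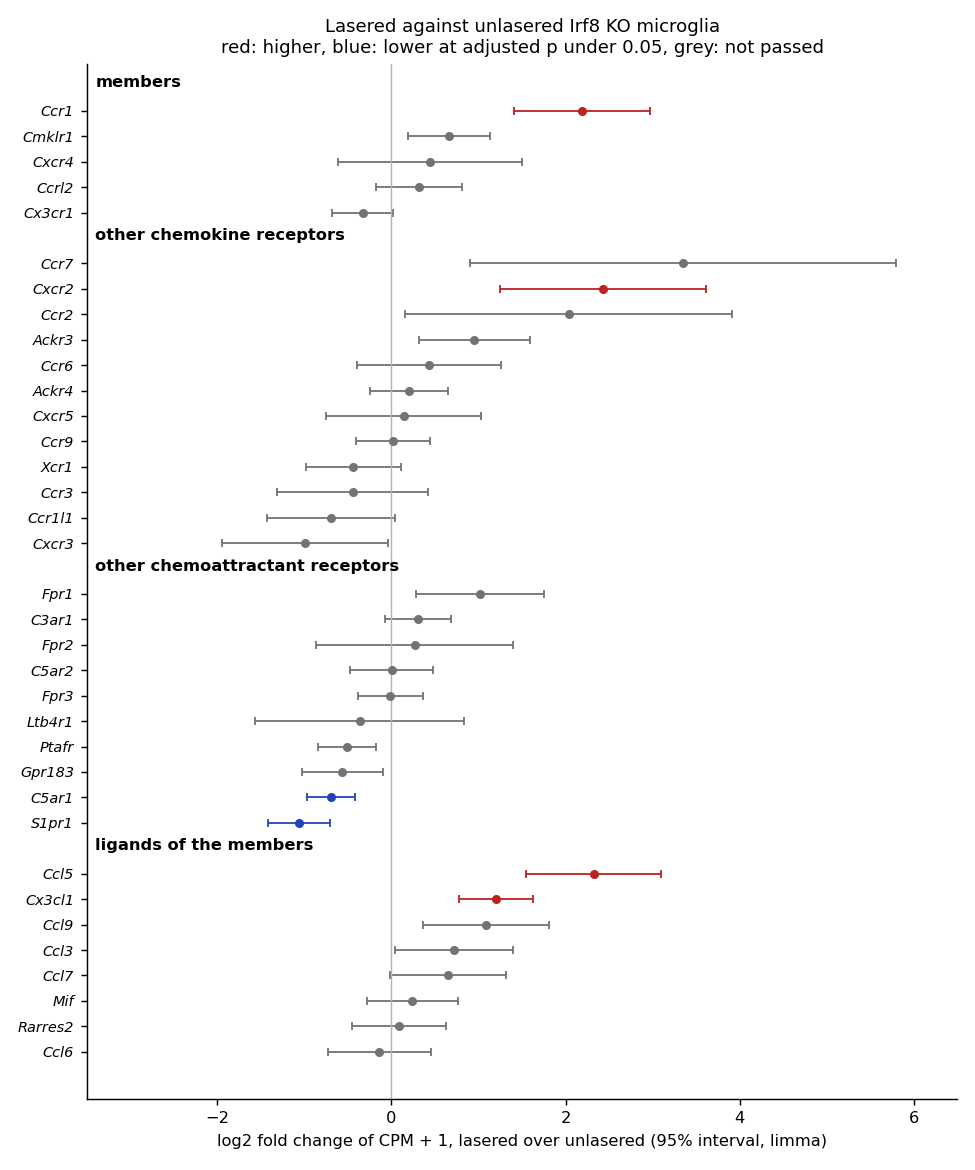
Log2 fold change of CPM + 1, lasered over unlasered (horizontal axis), with the 95% interval from limma, for the 5 receptors and the tested genes of 3 lists. Red points were higher and blue points lower at an adjusted p under 0.05 over all genes, and grey points did not pass. *Ccr1* at 2.19 is the only one of the 5 that passed, beside *Cxcr2*, *Ccl5* and *Cx3cl1* in the same direction and *C5ar1* and *S1pr1* in the other.

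Of 13 receptors for other leukocyte attractants 10 were tested, of which 0 were higher, 2 lower and 8 did not pass, with a median log2 difference of -0.19. Over all genes tested 3.86% were higher and 3.07% lower. *C5ar1*, the receptor for complement C5a, fell from 973, 1030 and 781 CPM to 600, 540, 564 and 579 CPM (-0.69, SE 0.12, adjusted p = 0.0162 by limma), and its adjusted p was 0.0568 without lasered library 2. *S1pr1*, a receptor for sphingosine 1-phosphate, fell from 217, 198 and 203 CPM to 102, 74.6, 110 and 110 CPM (-1.06, SE 0.16, adjusted p = 0.00947 by limma). *C3ar1*, the receptor for complement C3a, did not pass, at 916 to 1236 CPM in unlasered and 1101 to 1700 CPM in lasered libraries (0.30, adjusted p = 0.331 by limma). *Gpr1*, which encodes a further chemerin receptor, was at 0.0876 to 0.392 CPM in unlasered and 0.111 to 0.849 CPM in lasered libraries and was not tested.

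In the list of receptor signalling and desensitisation, 24 of 25 genes were listed and 23 tested, of which 2 were higher, 0 lower and 21 did not pass, beside 3.86% higher and 3.07% lower over all genes tested, with a median log2 difference of 0.11. *Rac2*, a GTPase of the actin response in blood cells, rose from 239, 228 and 267 CPM to 489, 474, 499 and 448 CPM (0.97, SE 0.11, adjusted p = 0.00461 by limma). *Gnai2*, which encodes the main inhibitory G protein subunit of leukocytes and shares reads with another gene, went from 717 to 731 CPM to 877 to 1118 CPM, at an adjusted p of 0.0498 by limma that passed in 3 of 15 alternatives. *Rgs2* and *Rac1* were the next most abundant of this list, at 658 to 1025 and 630 to 704 CPM over all libraries, and neither passed. Without lasered libraries 1 and 2 the log2 fold change was -0.69 for *C5ar1* (adjusted p = 0.133 by limma), -0.89 for *S1pr1* (adjusted p = 0.0925) and 0.95 for *Rac2* (adjusted p = 0.0809), so these missed the threshold in that smaller set.

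Markers of other myeloid cells moved with part of these values, and their part in the results was not tested. The 7 dendritic cell markers summed to 31.0, 18.3 and 40.9 CPM in unlasered and 144, 168, 43.0 and 34.5 CPM in lasered libraries (exact permutation p = 0.114). Of the 6 tested, 1 was higher, *Ccl22*, beside 3.86% of all genes tested. *Ccl22* had 4, 1 and 2 reads in the unlasered libraries and entered the test only through the lasered ones, so its call lends no support. This list holds *Ccr7*, and its marker *Clec9a* was at 0 to 0.245 CPM. In lasered library 3 the dendritic cell sum was near that of unlasered library 3. *Zbtb46*, at 23.5 CPM in lasered and 36.6 CPM in unlasered library 3, gave most of both sums. In lasered library 3 *Ccl22*, *Ccr7* and *Cd209a* were at 8.89, 5.34 and 2.87 CPM. In unlasered library 3 they were at or under the floor of 3 reads, while *Flt3*, *Xcr1* and *Clec9a* were higher there. Without *Zbtb46*, the sums of this list differed by 67.0 CPM, lasered minus unlasered (exact permutation p = 0.0571). The 9 monocyte markers, *Ccr2* among them, summed to 206, 148 and 571 CPM in unlasered and 1031, 801, 718 and 348 CPM in lasered libraries (exact permutation p = 0.114). Without *Fn1*, the difference of the sums, lasered minus unlasered, went from 416 to 11.7 CPM (exact permutation p = 0.971). In this list 1 of 7 tested, *Fn1*, was higher, beside 3.86% of all genes tested. *Ly6c2*, a defining marker of inflammatory monocytes, was at 0.0436 to 0.891 CPM. The sum of the 7 border macrophage markers was lower in each lasered library, at 653 to 978 CPM against 1204 to 1307 CPM (exact permutation p = 0.0571). *Mrc1* and *Pf4* gave most of it, with log2 differences of -0.59 (adjusted p = 0.131 by limma) and -0.89 (adjusted p = 0.0285 by limma). The other tested markers were at 1.06 (*Cbr2*), 0.34 (*Folr2*), 0.13 (*F13a1*) and -0.02 (*Cd163*). Of the 6 tested, 1 was lower, beside 3.07% of all genes tested. The authors reported more *Mrc1* in *Irf8*-deficient rMG than in controls, so the sum does not single out border macrophages. The 9 neutrophil markers, which include *Cxcr2*, summed to at most 13.8 CPM and the 9 lymphoid markers to at most 8.76 CPM in any library. Endothelial markers summed to at most 58.4 CPM and those of the retinal pigment epithelium to at most 19.8 CPM. The Mueller glia list, whose largest member is *Apoe*, summed to 52386 to 77375 CPM in unlasered and 29505 to 72697 CPM in lasered libraries (exact permutation p = 0.114). Without *Apoe* the sum of the rest differed by -384 CPM, lasered minus unlasered (exact permutation p = 0.0571). Most of that difference came from *Slc1a3*, with means of 388 and 123 CPM (-2.14, adjusted p = 0.155 by limma). Of the 7 tested 1 was lower, *Dkk3* (-0.91, adjusted p = 0.0138 by limma), and 1 higher, *Gfap* (1.59), beside 3.07% and 3.86% of all genes tested. *Gfap* had 0, 0 and 55 reads in the unlasered libraries and entered the test through the lasered ones, so its call lends no support. *Glul*, *Rlbp1* and *Clu* were at -0.10, -0.42 and -0.46.

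**Figure D4:**
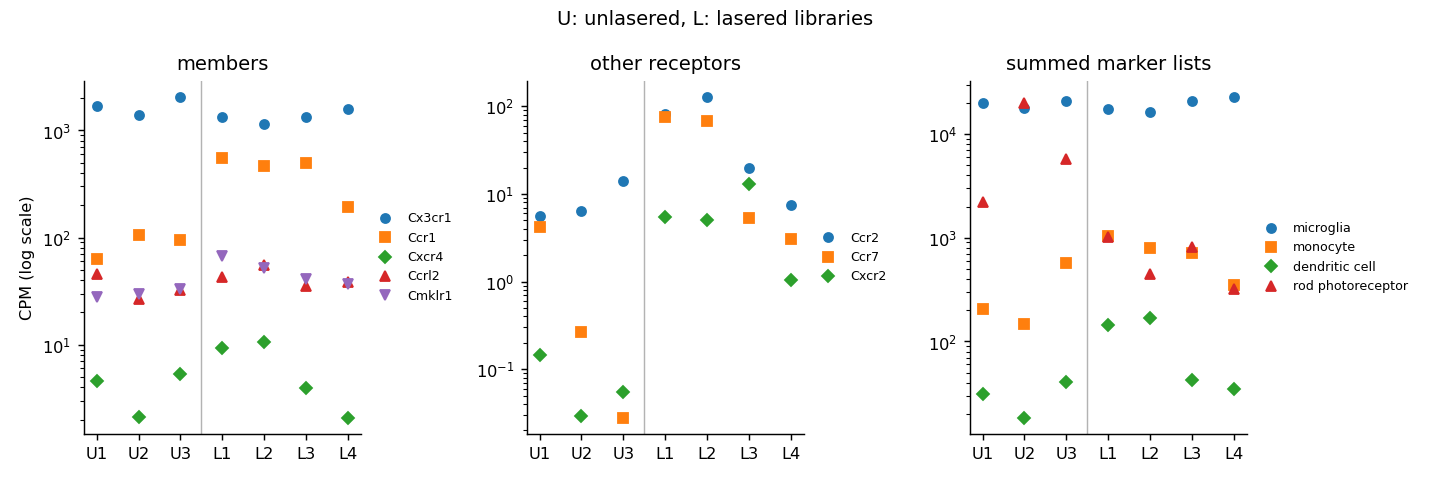
CPM (vertical axis, log scale) of the 5 receptors, of 3 other chemokine receptors and of 4 summed marker lists in each unlasered (U) and lasered (L) library. *Ccr1* is high in lasered libraries 1 to 3, and *Ccr7* and the dendritic cell sum are highest in lasered libraries 1 and 2. In lasered library 3 *Ccr7* still lies above every unlasered value. The part of dendritic cells in the *Ccr1* values was not tested. The rod sum is highest in unlasered library 2 at 20091 CPM.

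Over the 7 libraries, the receptors followed each other to different degrees, which is given as a description since the libraries share 2 groups and the values of each library share its depth. On the log2(CPM + 1) scale *Ccr1* and *Cmklr1* went together most closely (Pearson r = 0.903), followed by *Cxcr4* and *Ccrl2* (0.727) and *Cxcr4* and *Cmklr1* (0.709). *Cx3cr1* ran opposite to *Ccr1* (-0.758) and to *Cmklr1* (-0.633).

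For each receptor, the genes most like it over the 7 libraries were taken from those with at least 10 CPM in every library. Most like *Cx3cr1* were *Sgpp1* (r = 0.983), *Dab2* (0.978) and *Topors* (0.970). Most like *Ccr1* were *mt-Co1* (0.997), *Gm13340* (0.993) and *Lgals3bp* (0.992). *mt-Co1*, a subunit gene of the mitochondrial respiratory chain, was at 760 to 980 CPM in unlasered and 1271 to 1793 CPM in lasered libraries, and *Lgals3bp*, which encodes a secreted glycoprotein, at 306 to 347 and 538 to 887 CPM. Both had their lowest lasered value in library 4, as *Ccr1* did, which their choice by correlation with *Ccr1* favours. The part of mitochondrial RNA in the *Ccr1* values was not tested. Most like *Cmklr1* were *Gm42418* (0.995), *Oasl2* (0.984), an interferon-induced gene, and *AC165092.1* (0.982). *Gm42418*, whose span overlaps ribosomal RNA sequence, was at 105, 129 and 144 CPM in unlasered and 793, 535, 295 and 212 CPM in lasered libraries. This is the order of *Cmklr1* over the lasered libraries, which the choice by correlation favours. The part of *Gm42418* in the *Cmklr1* values was not tested. Most like *Cxcr4* were *Rbms1* (0.982), *Msrb1* (0.978) and *Lyz2* (0.971), the lysozyme gene of myeloid cells, and most like *Ccrl2* were *Smyd4* (0.971), *Eif3l* (0.965) and *Nudt16* (0.965).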

How the data were processed

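RNA-seq of 7 *Irf8* KO rMG libraries (3 unlasered, 4 lasered) was used. The authors removed adapters and duplicate reads with cutadapt and FastUniq, mapped with bowtie2, counted with HTSeq on gene annotation version 90 and normalised via DESeq2. The submitters' processing notes name GRCm38. The deposited values are headed TPM but are CPM: 100% were whole multiples of 1 read per library (tolerance 0.0001 CPM), and the recovered reads gave the depths. Values were used as deposited. Reads assigned to a pair of overlapping genes enter the values of 4492 genes, though not the 5 receptor rows. Where gene spans but not exons overlapped, joint reads show that introns could be counted.

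log2(CPM + 1) was fitted with limma 3.58.1 (statmod 1.5.0, R 4.3.3; mean-variance trend, robust empirical Bayes, two-sided) over the 17496 genes that reached 1 CPM in 3 or more libraries, with Benjamini-Hochberg adjustment. Changed means an adjusted p under 0.05, and 1213 genes (6.93%) passed. Count models on recovered reads (edgeR 4.0.16, 1266 genes; DESeq2 1.42.0, 2318 genes) were alternatives, beside other pseudocounts, filters, scaling, a replicate block and leaving out libraries. Sums and ratios were tested with exact permutation tests (scipy 1.17.1). The fits were tested on simulated data. The genes and lists were chosen with earlier results of these data known. Genes named are the 5 receptors, *Irf8*, the ligands, the genes past the threshold and the 3 most abundant of each other list, markers beside a result, and the 3 genes most correlated with each receptor. *Ackr3*, the neighbours of *Ccr1* and *Gpr1* were named after their values were seen. The labels do not say whether mice were shared between pools, so p-values measure the spread between these libraries. The floor covers counting error only. Some genes of the lists are not reported here and were left out of the counts and sums.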

Additional observations from a re-analysis of the deposited data

Results flagged for a closer look

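One value stood apart within its group. In the lasered group the ratio of *Cx3cr1* to *Ccr1* was 8.18 in library 4 and 2.40 to 2.72 in the other 3 libraries, a gap beyond Dixon's 95% limit for 4 samples. Of 33 sets of values examined in this way 1 was flagged, and chance flags about 1 in 20. The unlasered ratios were 13.1 to 26.8, so library 4 still lay outside that range.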

How the results depend on the processing

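*Ccr1* kept its direction in all 16 alternatives and passed in 14. Leaving out 1 library gave log2 fold changes of 1.97 to 2.53 (adjusted p 0.00532 to 0.0447 by limma). It missed the threshold without lasered libraries 1 and 2 together (1.83) and with a replicate block (2.53, adjusted p = 0.0708). The block leaves lasered library 4 without a partner. The methods name no pairing of the libraries by replicate number. Deviations of same-numbered libraries correlated at -0.183, -0.126 and -0.0234, which cannot exclude a shared batch or sort day. The block left 3 genes changed instead of 1213. *Cxcr2*, *Ccl5*, *Cx3cl1*, *C5ar1*, *S1pr1*, *Rac2* and *Gnai2* missed the threshold under it as well (adjusted p 0.0708 to 0.164 by limma), with log2 fold changes of 2.92, 2.49, 1.19, -0.70, -1.11, 1.00 and 0.46. *Cmklr1* passed with median-of-ratios scaling (0.74) and DESeq2 (0.72) and missed in the other 14 alternatives. *Cx3cr1*, *Ccrl2* and *Cxcr4* passed in none, and *Cxcr4* turned to -0.29 without lasered libraries 1 and 2. The number of genes changed was 385 with no filter on low values, 2318 with DESeq2 and 24 without lasered libraries 1 and 2, the last chosen after seeing the data. Leaving out 1 library gave 264 to 1248 genes: 774 and 663 without unlasered 1 and 2, and 417, 264, 436 and 797 without lasered 1 to 4. The cause was not tested. The log2 ratio difference of *Cxcr4* to *Ccrl2* ran from -0.0695 to 0.59 and that of *Cxcr4* to *Cmklr1* from -0.57 to 0.16 with 1 library left out. The unlasered *Cmklr1* level was 10.5 CPM per kilobase of the longest transcript. Without their most abundant gene, the lasered minus unlasered marker sum was -1.38 CPM for neutrophils and 0.887 CPM for lymphoid cells. Median-of-ratios scaling moved the median of all genes by 0.07 on the log2 scale. Depth limits *Cxcr2*, which was at or under the floor of 3 reads in unlasered libraries.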

Other observations

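*Ackr3*, the scavenging receptor for CXCL12, was at 5.58, 8.70 and 8.13 CPM in unlasered and 12.3, 10.5, 17.0 and 23.9 CPM in lasered libraries. The groups did not overlap, and 10.4% of all genes tested had all lasered values above all unlasered values. For *Ackr3* the log2 difference was 0.95 (SE 0.28, adjusted p = 0.0813 by limma), which did not pass. Its highest value was in lasered library 4, where *Ccr1*, *Cmklr1* and *Cxcr4* had their lowest lasered values.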
